A study of Arabidopsis thaliana with 4 samples.

Results

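The m90 line, a suppressor of the atprmt5 mutant in the words of the series design, was set against wild type to describe which transcripts still differed from wild type in it. All plants were Arabidopsis thaliana seedlings of the Columbia ecotype, 12 days old, raised at 23 °C on Murashige and Skoog medium that held 3% sucrose, in days of 16 h light and 8 h dark. The lines were m90, atprmt5 (mutated in the arginine methyltransferase gene PRMT5), s215 and wild type. Each line has 1 library, so there is no test between lines, and every difference below is a difference between libraries that holds no information on plant-to-plant variation. The gene mutated in m90 is not named in the labels, and neither is the state of its PRMT5 gene. Loci entered the comparison when their mean RPKM (reads per length of transcript and per size of library) over the m90 and wild-type libraries was at least 1. This held for 18522 of the 24288 loci deposited, and it kept loci that were high in only 1 of these libraries.

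PRMT5 adds methyl groups to arginines of other proteins, among them the Sm proteins at the core of the small nuclear ribonucleoproteins that splice messenger RNA. The protein complex in the title of the series (written NTC below) joins the spliceosome as it becomes active. Plants that lack PRMT5 are known for late flowering and for retained introns. A suppressor line carries a second mutation that relieves some of what a first mutation causes, so the level of PRMT5 itself is the first value to read in such a line.

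PRMT5 (AT4G31120, chromosome 4, 15132011 to 15136696, minus strand, with 23 exons) was measured at 0.974 RPKM in m90, 1.25 in atprmt5, 1.70 in s215 and 5.94 in wild type. The m90 to wild-type ratio was 0.162 (0.113 to 0.229). Brackets after a ratio hold a 95% exact counting interval throughout, which covers counting error only. The 3 mutant libraries lay below wild type. PRMT5 passed the minimum on wild type alone, so that it had to be lower in m90. Of the 9 arginine methyltransferase genes, 1 passed 2-fold downward in m90, PRMT5 itself, and 0 passed it upward. PRMT10, the member with the highest level, was at 60.8 RPKM in m90 against 47.0 in wild type.

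Differences are given as log2((RPKM in m90 + 1)/(RPKM in wild type + 1)), a scale that understates the change of low transcripts, and a locus is called higher or lower at 2-fold on it. Of the 18522 loci, 491 were higher in m90 (2.65%) and 507 lower (2.74%), together 5.39%. The median log2 ratio was -0.04 with an SD of 0.51 across loci, and 94.6% of loci lay within 2-fold. At 4-fold there were 38 higher and 54 lower loci, and at 8-fold 2 higher and 12 lower. The counting interval of the ratio included 1 for 7 of the higher and 6 of the lower loci. The reads behind the scaling were 17802377 in m90 and 17350612 in wild type, with 1884 and 1882 loci at 0. The higher loci had a median of 18.6 RPKM in m90 against 6.07 in wild type, and the lower ones 3.92 in m90 against 11.9 in wild type. Among the lower loci, 108 had under 1 RPKM in m90 and therefore passed the minimum on wild type alone. Among the higher ones, 73 had under 1 RPKM in wild type and therefore passed the minimum on m90 alone. By the same rule, and with the same wild-type library, atprmt5 had 340 higher and 635 lower loci of 18560 (1.83% and 3.42%), and s215 had 2438 and 4371 of 18402 (13.2% and 23.8%).

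**Figure D1:**
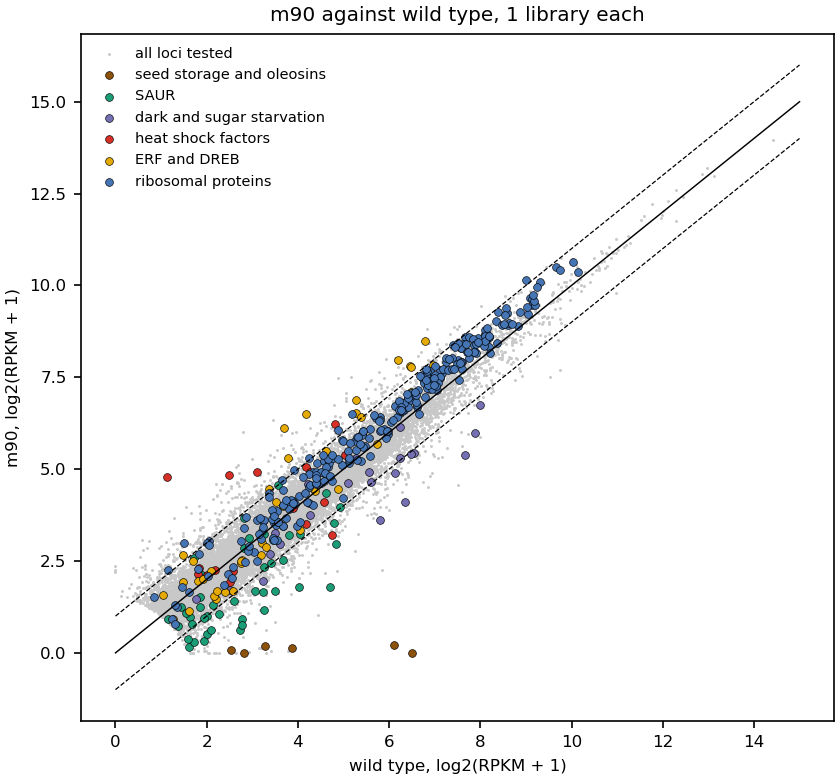
Level of each of the 18522 loci in m90 (vertical, log2(RPKM + 1)) against wild type (horizontal, same scale), 1 library each, with the solid line at equality and dashed lines at 2-fold. The tested seed storage and oleosin genes lie at the bottom, near 0 in m90, and most ribosomal protein genes lie a little above the solid line.

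Promoter sequences are shown for 5 genes of the groups described below, the heat shock factor and zinc finger genes with the highest ratios and 3 seed genes. They were picked because these groups are known for short motifs in their promoters, so other loci with ratios as extreme are not shown. Each run is the 250 bases upstream of the annotated start, 5′ to 3′ on the strand of the gene, read from the RefSeq assembly of the TAIR10 chromosomes. Capitals mark the motif, on either strand.
HSFA2 (chr2:11135374-11135623, plus strand): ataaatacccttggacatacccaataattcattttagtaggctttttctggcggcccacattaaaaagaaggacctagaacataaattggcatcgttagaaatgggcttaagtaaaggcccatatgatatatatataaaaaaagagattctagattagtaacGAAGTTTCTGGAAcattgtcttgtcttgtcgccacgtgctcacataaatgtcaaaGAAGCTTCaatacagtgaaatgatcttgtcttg
ZAT7 (chr3:16926884-16927133, minus strand): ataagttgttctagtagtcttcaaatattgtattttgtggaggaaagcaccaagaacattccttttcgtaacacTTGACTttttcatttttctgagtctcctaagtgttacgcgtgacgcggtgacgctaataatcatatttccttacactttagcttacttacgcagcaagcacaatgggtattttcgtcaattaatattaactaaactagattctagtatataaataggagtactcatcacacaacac
CRU3 (chr4:14087306-14087555, plus strand): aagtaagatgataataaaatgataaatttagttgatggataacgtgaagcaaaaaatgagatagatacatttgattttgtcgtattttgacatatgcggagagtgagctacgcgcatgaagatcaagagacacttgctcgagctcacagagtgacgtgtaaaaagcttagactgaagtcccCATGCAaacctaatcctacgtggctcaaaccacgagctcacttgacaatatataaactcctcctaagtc
CRA1 (chr5:17758337-17758586, minus strand): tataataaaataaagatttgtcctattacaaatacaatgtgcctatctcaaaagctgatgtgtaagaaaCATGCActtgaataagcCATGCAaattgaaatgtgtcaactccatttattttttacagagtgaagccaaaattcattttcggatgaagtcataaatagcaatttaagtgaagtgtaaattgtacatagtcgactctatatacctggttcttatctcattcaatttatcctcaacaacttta
OLEO1 (chr4:12900180-12900429, plus strand): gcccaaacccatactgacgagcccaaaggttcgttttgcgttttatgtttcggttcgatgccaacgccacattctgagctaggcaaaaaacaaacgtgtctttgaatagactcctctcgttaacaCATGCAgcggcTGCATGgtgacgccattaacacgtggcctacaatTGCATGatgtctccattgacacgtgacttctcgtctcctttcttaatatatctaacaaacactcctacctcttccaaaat
For HSFA2 the capitals mark the heat shock element, searched as GAANNTTC or TTCNNGAA, where neighbouring matches overlap. It is the core of the site bound by heat shock factors, and there are 3 matches. For ZAT7 they mark a W box, searched as TTGACC or TTGACT, the site of WRKY factors. For the seed genes CRU3, CRA1 and OLEO1 they mark the RY element CATGCA, known from seed storage genes, with 1, 2 and 3 matches.

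These motifs were counted in the same window of every locus tested that the annotation places. A heat shock element was present in 23.1% of the higher loci, 15.8% of the lower loci and 15.7% of 18446 loci in all. A W box was present in 40.6% of the higher loci, 22.6% of the lower and 27.9% of all. The RY element was present in 10.4% of the higher, 13.5% of the lower and 7.36% of all. It stood before 14 of the 15 seed storage and oleosin genes in the table, whether or not they passed the minimum, but before 4 of 42 late embryogenesis abundant genes. The telo box AAACCCTAA, known from ribosomal protein genes, stood before 17 of 286 of them (5.94%), against 2.06% of all loci. A match is a run of letters and does not show that a factor binds there.

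The heat shock factor gene HSFA2 had the highest ratio, and HSFB2B was also among the 15 highest. HSFA2, a heat shock factor that sustains the heat response (AT2G26150, chromosome 2, 11135624 to 11137792), was at 26.5 RPKM in m90, 0.629 in atprmt5, 1.29 in s215 and 1.18 in wild type. That is 22.5-fold higher in m90 than in wild type (15.5 to 33.9), a log2 ratio of 3.66. The m90 library stood alone for this gene, with the other 3 close together. HSFB2B was at 27.5 RPKM in m90, 2.83 in atprmt5, 3.50 in s215 and 4.63 in wild type, a ratio of 5.93 (5.01 to 7.06). Of 18 heat shock factor genes tested, 4 were higher and 1 lower, with a list median of 0.22, or 0.49 at a minimum mean of 5 RPKM. The other higher members were HSFA7A, at 29.5 RPKM in m90 against 7.65 in wild type, and HSFB2A, at 74.2 against 27.1. HSFA6A was lower, at 8.24 RPKM in m90 against 25.8 in wild type.

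Chaperones, which hold or refold damaged proteins, had 5 higher and 1 lower member of 17 tested (median 0.31). The small heat shock protein gene AT1G59860 was at 23.3 RPKM in m90, 5.03 in atprmt5, 0.639 in s215 and 3.59 in wild type, a ratio of 6.52 (5.03 to 8.56). HSP101, which pulls proteins out of aggregates, was at 20.8 RPKM in m90, 3.38 in atprmt5, 2.78 in s215 and 3.91 in wild type (ratio 5.30, 4.58 to 6.16). The small heat shock protein genes AT1G07400, AT1G54050 and AT1G52560 were the other higher members. AT1G54050 had the highest level of them, 143 RPKM in m90 against 44.0 in wild type. HSA32 was the lower member, at 1.63 RPKM in m90 against 6.03 in wild type. Members of this family resemble each other, and how reads with several matches were counted is not given in the sources used here, so single members are uncertain.

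Genes for zinc finger, WRKY and ERF factors and for calcium-binding proteins were also among the 15 highest loci. ZAT7, a zinc finger gene (AT3G46090, chromosome 3, 16925881 to 16926883), was at 63.9 RPKM in m90, 2.94 in atprmt5, 52.0 in s215 and 5.95 in wild type, 10.8-fold higher in m90 than in wild type (8.99 to 13.0). The m90 and s215 libraries were high and the other two low. Its neighbour AT3G46080, of the same family, was also higher, at 17.1 RPKM in m90 against 3.38 in wild type. Of 10 ZAT and AZF genes tested, 5 were higher and 0 lower, 9 had a log2 ratio above 0, and the median of 1.06 was the highest of the lists. ZAT12, known from oxidative stress, was at 288 RPKM in m90 against 103 in wild type, ZAT6 at 22.2 against 4.78, and AZF2 at 63.6 against 28.8.

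WRKY46 (AT2G46400, chromosome 2, 19043411 to 19044955) was at 179 RPKM in m90, 9.49 in atprmt5, 55.1 in s215 and 28.5 in wild type. The m90 to wild-type ratio was 6.27 (5.76 to 6.85). Of 48 WRKY genes tested, 5 were higher and 1 lower, and the median of 0.11 shows that most of the family lay near wild type. WRKY33, a regulator of defence against fungi, was at 479 RPKM in m90 against 185 in wild type, and WRKY40 was at 469 against 172. WRKY53 and WRKY48 were at 44.4 and 14.3 RPKM in m90 against 17.2 and 5.15 in wild type. WRKY45 was lower, at 5.18 RPKM in m90 against 13.9 in wild type.

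ERF and DREB genes, which encode factors that act downstream of ethylene, drought and cold, had 12 higher and 0 lower members of 42 tested (28.6% higher, median 0.24, or 0.61 at a minimum mean of 5 RPKM). ERF13 was at 69.0 RPKM in m90, 1.26 in atprmt5, 0.370 in s215 and 11.9 in wild type (ratio 5.79, 5.05 to 6.66). For this gene m90 lay above wild type, and the other lines lay below it. DDF1 was at 88.9 RPKM in m90, 3.07 in atprmt5, 0.106 in s215 and 17.2 in wild type. ERF5, RRTF1 and DREB2A, at 251, 359 and 116 RPKM in m90, were at 72.7, 110 and 37.4 in wild type. DREB2A is an activator of drought and heat genes. The other members called were ERF11, ERF6, ERF104, ERF4, ERF71, CBF1 and ORA47, with log2 ratios between 1.03 and 1.53. A further locus of this DNA-binding class, AT1G22810, was among the 15 highest loci, at 11.7 RPKM in m90 against 1.43 in wild type.

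Calmodulin-like genes, whose products bind calcium, had 4 higher and 0 lower members of 8 tested (median 0.89). CML37 was at 180 RPKM in m90, 1.34 in atprmt5, 23.8 in s215 and 35.0 in wild type (ratio 5.14, 4.80 to 5.52). TCH3, named for its response to touch, was at 253 RPKM in m90, 44.1 in atprmt5, 266 in s215 and 60.4 in wild type. CML38 and CML23 were the others, at 155 and 22 RPKM in m90 against 55.3 and 9.91 in wild type. Another gene for a calcium-binding protein, AT3G01830, was among the 15 highest loci, at 14.8 RPKM in m90 against 1.94 in wild type.

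**Figure D2:**
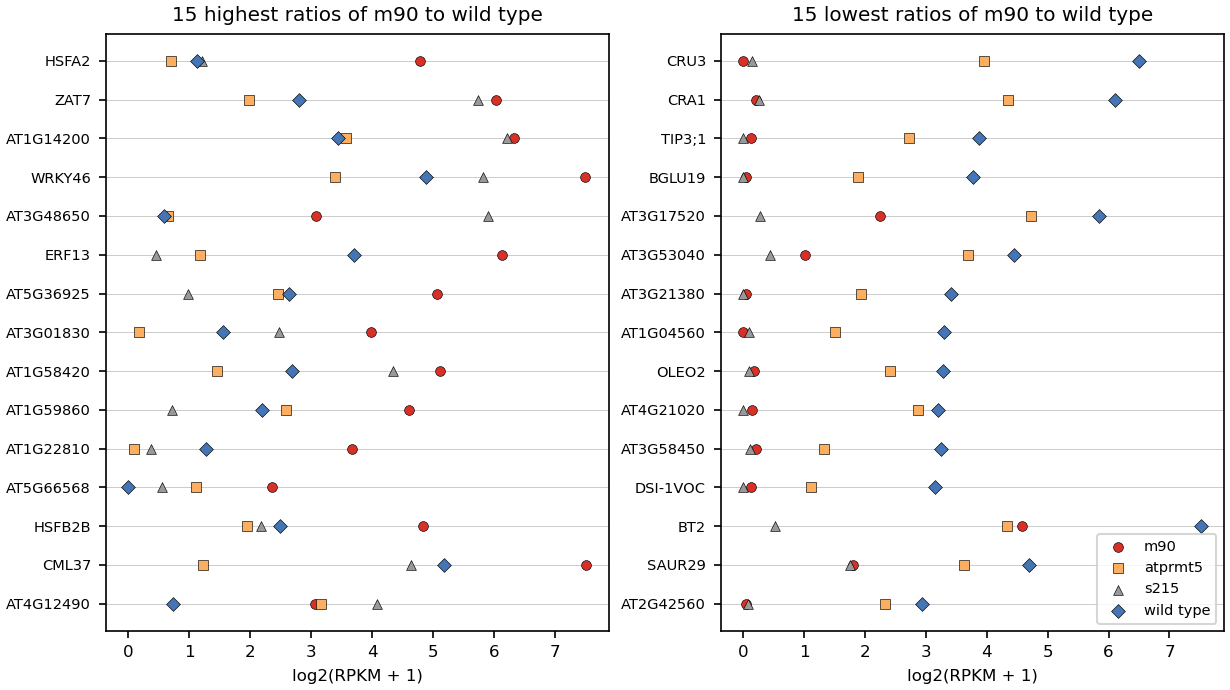
Level of the 15 loci with the highest and the 15 with the lowest m90 to wild-type ratio in each of the 4 libraries, as log2(RPKM + 1), with 1 symbol per library. Among the lowest loci, m90 lies near 0 for most seed genes, with atprmt5 between m90 and wild type, whereas among the highest loci HSFA2 is high in m90 alone.

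The rest of the 15 highest loci were of mixed kind. AT1G14200, a RING-type protein gene, was at 79.4 RPKM in m90, 10.8 in atprmt5, 72.6 in s215 and 9.88 in wild type. AT3G48650, for which the annotation gives no product, was at 7.44 RPKM in m90, 0.564 in atprmt5, 58.7 in s215 and 0.504 in wild type. AT4G12490, a lipid transfer protein gene, was at 7.33 RPKM in m90, 7.96 in atprmt5, 15.9 in s215 and 0.660 in wild type, and its neighbours EARLI1 and AT4G12500 were higher as well. For this gene all 3 lines lay above wild type. AT3G48650 and AT4G12490 passed the minimum on m90 alone, so that they had to lie above wild type. AT5G36925 and AT1G58420, of no known role, were at 32.5 and 33.4 RPKM in m90 against 5.24 and 5.45 in wild type. The isoleucine tRNA locus AT5G66568 rested on 5 reads in m90 and 0 in wild type. With a floor of 3 reads set in wild type it was 1.62-fold higher, a value that leaves out counting error. Transfer RNA copies are near-identical, so its value is uncertain.

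Hormone and defence genes were next. Of 14 genes of jasmonate synthesis, 5 were higher and 0 lower (median 0.64). LOX3 and LOX4, lipoxygenases at the head of the pathway, were at 70.7 and 29.6 RPKM in m90 against 23.7 and 10.1 in wild type. LOX2 and AOC3 were at 149 and 25.6 RPKM in m90 against 61.0 and 10.9 in wild type, and OPCL1 was at 214 against 77.9. Of 12 JAZ genes, whose products repress the jasmonate response and which are themselves targets of it, 3 were higher and 0 lower (median 0.57). JAZ1 was at 147 RPKM in m90, 16.1 in atprmt5, 39.7 in s215 and 55.3 in wild type. JAZ5 and JAZ8 were at 47.4 and 7.63 RPKM in m90 against 16.0 and 2.52 in wild type.

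Of 13 regulators of salicylic acid tested, 4 were higher and 0 lower (median 0.50). SARD1, an activator of salicylic acid synthesis, was at 3.79 RPKM in m90, 1.56 in atprmt5, 79.2 in s215 and 0.375 in wild type (ratio 10.1, 5.44 to 20.8). CBP60g, which acts beside SARD1, was at 14.4 RPKM in m90 against 5.42 in wild type, and PAD4 at 23.4 against 10.4. NIMIN1 was the other, at 2.80 RPKM in m90 against 0.639 in wild type. SARD1 and NIMIN1 passed the minimum on m90 alone, so that they had to lie above wild type. Among the members not called, ICS1 was at 5.76 RPKM in m90 against 5.62 in wild type. EDS5, PBS3 and NPR4 had log2 ratios below 0, and EDS1, SAG101, NPR1, NIMIN2 and NPR3 above 0. Of 4 pathogenesis-related genes tested, PR5 was higher, at 11.5 RPKM in m90, 7.47 in atprmt5, 1699 in s215 and 2.59 in wild type. PR1, a marker of the salicylic acid response, was at 2.44 RPKM in m90 against 1.21 in wild type, past the minimum but under 2-fold on the scale used. Of 8 genes for PROPEP danger peptides and their receptors, PROPEP4 was higher, at 8.81 RPKM in m90 against 3.89 in wild type. Over all loci 2.65% were higher, and a single call in a list this small does not set the list apart.

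Of 16 cysteine-rich receptor-like kinase genes tested as a list, CRK10, CRK11 and CRK40 were higher and 0 were lower (median -0.13). CRK14, beside the higher locus AT4G23215, was called higher as well. CRK10 was at 65.8 RPKM in m90, 24.0 in atprmt5, 61.3 in s215 and 26.9 in wild type. A list of genes for TIR-domain disease resistance proteins, added after its values were seen, had 9 higher and 0 lower members of 74 tested (median -0.03). The members higher in m90 lay partly side by side: AT1G72910 and AT1G72920, AT1G72940 and AT1G72950, and AT5G41740 and AT5G41750. AT5G41740 was at 37.9 RPKM in m90, 2.0 in atprmt5, 16.8 in s215 and 6.97 in wild type (ratio 5.44, 4.92 to 6.02). AT1G72920 had the highest level of the 9, at 120 RPKM in m90, 10.9 in atprmt5, 9.30 in s215 and 32.4 in wild type. Of 24 glucosinolate genes, ESM1 alone was called, at 159 RPKM in m90 against 71.2 in wild type. That count lies near the 5.39% of all loci that were called.

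Transcripts of several late anthocyanin enzymes were higher in m90. Of 19 flavonoid and anthocyanin enzyme genes, 7 were higher and 0 lower (36.8% higher, median 0.68). DFR, a late enzyme of the pathway (AT5G42800, chromosome 5, 17164093 to 17166032), was at 14.9 RPKM in m90, 82.3 in atprmt5, 1.18 in s215 and 2.54 in wild type, with an m90 to wild-type ratio of 5.86 (4.45 to 7.84). LDOX, which makes anthocyanidins, was at 18.0 RPKM in m90, 70.8 in atprmt5, 0.320 in s215 and 5.14 in wild type. For both genes m90 lay between wild type and atprmt5. The glycosyltransferase genes UF3GT and AT4G14090 were at 4.03 and 5.11 RPKM in m90 against 0.503 and 1.44 in wild type. UF3GT passed the minimum on m90 alone. The remaining members called were GSTF12, the acyltransferase locus AT1G03940 and the malonyltransferase gene 5MAT. Of 14 regulators of the pathway tested, the MYB activator PAP1 was higher, at 6.8 RPKM in m90 against 1.39 in wild type, and the repressor LBD39 was lower, at 11.4 against 31.4.

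Iron genes were divided. Among 22 iron deficiency genes tested, 3 passed 2-fold upward and 2 downward (median 0.22). CYP82C4, FRO2 and IRT1 act in iron uptake by the root. CYP82C4 was at 5.12 RPKM in m90, 4.59 in atprmt5, 0 in s215 and 0.443 in wild type. FRO2 and IRT1 were at 2.64 and 4.62 RPKM in m90 against 0.258 and 1.44 in wild type. CYP82C4 and FRO2 passed the minimum on m90 alone, so that they had to lie above wild type. The regulators BHLH38 and BHLH101 were the lower members, at 3.20 and 5.88 RPKM in m90 against 12.6 and 14.3 in wild type. The 4 ferritin genes, for iron storage, were within 2-fold, as were 94.6% of all loci, with FER1 at 41.9 RPKM in m90 against 27.0 in wild type.

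Most cell cycle and replication genes lay slightly above wild type in m90. Of 34 cell cycle genes tested, 32 had a log2 ratio above 0, 4 were higher and 0 lower, and the median was 0.65. CYCB1;4, a mitotic cyclin, was at 18.8 RPKM in m90, 14.1 in atprmt5, 0.537 in s215 and 7.88 in wild type (ratio 2.38, 2.03 to 2.80). The kinesin gene HIK was at 39.5 RPKM in m90 against 18.2 in wild type. The cyclins CYCA1;1 and CYCB1;2 were at 6.61 and 21.3 RPKM in m90 against 2.7 and 9.91 in wild type. Of 29 replication genes, 26 had a log2 ratio above 0, 3 were higher and 0 lower (median 0.40). PCNA1, the sliding clamp of DNA polymerase, was at 35.6 RPKM in m90, 29.8 in atprmt5, 3.20 in s215 and 16.2 in wild type, and the helicase subunits MCM4 and MCM7 were at 10.3 and 10.9 in m90 against 4.50 and 4.92 in wild type. In whole seedlings, more cells of a type and more RNA per cell cannot be told apart, nor can fewer cells and less RNA.

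Of 40 core and linker histone genes tested, 32 had a log2 ratio above 0, 10 passed 2-fold upward (25%) and 0 downward, and the median was 0.54. HTA8, an H2A gene, was at 13.6 RPKM in m90, 6.59 in atprmt5, 0.498 in s215 and 5.09 in wild type. HTB2, an H2B gene, was at 136 RPKM in m90, 123 in atprmt5, 18.9 in s215 and 57.1 in wild type. HTA13, HTA6 and HTA11, the histone H3 loci AT5G10400, AT5G10390 and AT1G09200, and the H4 loci AT5G59690 and AT5G59970 were the others. Several are near-identical copies whose reads the counting could split, so single members are uncertain. The linker histone gene HIS1-3 had the lowest ratio of the list, at 187 RPKM in m90 against 358 in wild type (0.522, 0.498 to 0.548).

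Ribosomal protein genes were higher by similar small amounts: 236 of 273 tested had a log2 ratio above 0 and the median was 0.41, against -0.04 over all loci. The list passed 2-fold for 8 members, all higher, a share of 2.93% near the background of 2.65%. Their summed level was 49435 RPKM in m90, 36691 in atprmt5, 20952 in s215 and 34780 in wild type. RPL18 was the most abundant member called, at 1126 RPKM in m90, 681 in atprmt5, 303 in s215 and 511 in wild type (ratio 2.2, 2.14 to 2.26). The locus AT1G23410 was at 89.9 RPKM in m90 against 35.6 in wild type. Most ribosomal proteins have several gene copies, with the same limit as for histones.

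**Figure D3:**
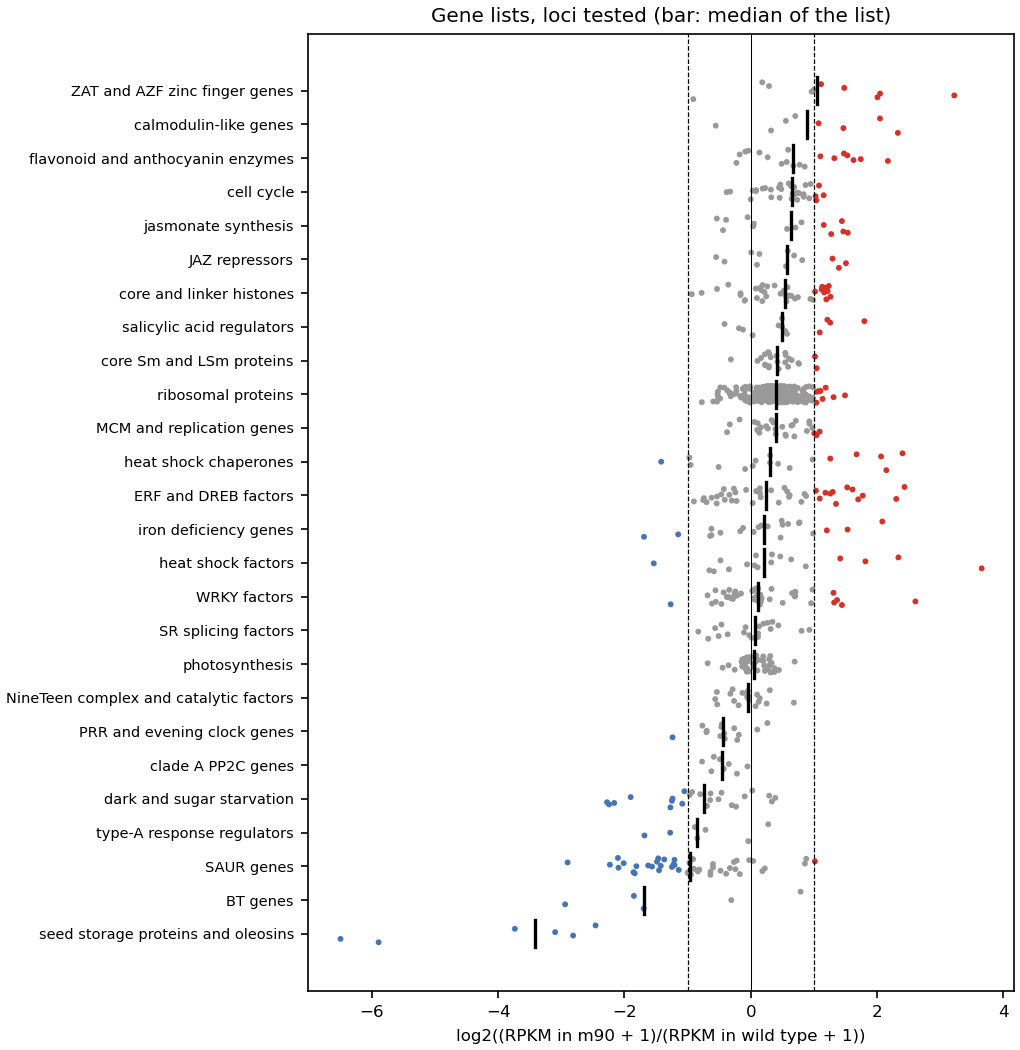
Log2 ratio of m90 to wild type for the tested members of 26 gene lists, 1 point per locus, coloured past the dashed 2-fold lines, with a bar at each list's median. ZAT and AZF genes head the plot with a median of 1.06, ribosomal proteins form a narrow cloud around 0.41, and SAUR, BT and seed genes lie lowest.

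Of 24 Sm and LSm genes, which encode the ring proteins of small nuclear ribonucleoproteins and include substrates of PRMT5, 23 had a log2 ratio above 0 and the median was 0.42. The Sm-type locus AT3G07590 and LSM5 were called, at 7.20 and 23.3 RPKM in m90 against 2.98 and 11 in wild type. Of 20 genes of the NTC and of catalytic factors tested, 0 were called either way and the median was -0.05. CDC5, an NTC member with the highest level of the list, was at 129 RPKM in m90, 165 in atprmt5, 352 in s215 and 186 in wild type, a ratio of 0.691 (0.669 to 0.713). Of 20 SR splicing factor genes, 0 were called (median 0.07), and SCL30 was at 124 RPKM in m90 against 113 in wild type. With 5.39% of all loci called, lists of 20 genes can hold 0 calls without differing from that share. The table holds 1 value per locus, so intron retention was not analysed here.

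The seed storage genes CRU3 and CRA1 had the lowest ratios in m90. CRU3, a 12S seed storage globulin (AT4G28520, chromosome 4, 14087556 to 14089796), had 0 RPKM in m90, 14.4 in atprmt5, 0.0960 in s215 and 89.3 in wild type. With a floor of 3 reads set in m90 it was 953-fold lower in m90 than in wild type, a value that leaves out counting error. CRA1, of the same class, was at 0.157 RPKM in m90, 19.2 in atprmt5, 0.193 in s215 and 67.8 in wild type, a ratio of 0.00231 (0.000751 to 0.00541) on 5 reads in m90. Both genes were near 0 in m90 and s215, highest in wild type and between them in atprmt5. OLEO1 and OLEO2, which coat the oil bodies of seeds, were at 0 and 0.129 RPKM in m90, 4.06 and 4.29 in atprmt5, 0 and 0.0660 in s215, and 6.03 and 8.66 in wild type. The seed aquaporin gene TIP3;1 was at 0.0953 RPKM in m90, 5.58 in atprmt5, 0 in s215 and 13.6 in wild type. Of 15 seed storage and oleosin genes in the table, 6 passed the minimum, each on wild type alone, so that they had to be lower in m90. The summed level of all 15 was 1.0 RPKM in m90, 53.3 in atprmt5, 0.355 in s215 and 195 in wild type.

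Late embryogenesis abundant genes, whose products protect drying cells, had 12 lower and 0 higher members of 26 tested, 7 of which passed on wild type alone. AT3G17520 was at 3.75 RPKM in m90, 25.6 in atprmt5, 0.213 in s215 and 56.4 in wild type (ratio 0.0662, 0.0514 to 0.0841). AT3G53040 was at 1.02 RPKM in m90, 12.0 in atprmt5, 0.350 in s215 and 20.8 in wild type. LEA7, the lower member with the highest level in m90, was at 19.1 RPKM against 51.4 in wild type. Over all 42 members in the table the median was -0.11 and the summed level was 632 RPKM in m90 against 651 in wild type. The lowest loci also held BGLU19 and its neighbour AT3G21380, a lectin gene, at 0.0297 and 0.0338 RPKM in m90 against 12.7 and 9.62 in wild type. AT1G04560 was at 0 RPKM in m90 against 8.83 in wild type, 44.8-fold lower with the same floor and without counting error. AT3G58450 and DSI-1VOC, a gene induced by drying, were at 0.148 and 0.0899 RPKM in m90 against 8.43 and 7.84 in wild type. BGLU19, AT3G21380, AT1G04560, AT3G58450 and DSI-1VOC passed the minimum on wild type alone, so that they had to be lower in m90.

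Markers of tissues were compared to see whether other organs differed as well. Of 12 embryo and dry seed markers in the table, 6 passed the minimum, each on wild type alone, so that they had to be lower in m90, with a summed level over the 12 of 1.99 RPKM in m90 and 196 in wild type. The activators of seed storage genes were low in both libraries, FUS3 at 0.622 RPKM in m90 against 0.506 in wild type and ABI3 at 0 against 0.386. Of 6 leaf markers, 8 root markers, 3 meristem markers, 2 flower markers and 9 markers of guard cells, trichomes and veins tested, 0 were called either way. With 5.39% of all loci called, lists this small can hold 0 calls without differing from that share. The medians were 0.20 for leaf, -0.26 for root and -0.07 for meristem markers, and -0.26 for those of guard cells, trichomes and veins. Rubisco activase RCA was at 8383 RPKM in m90 against 7432 in wild type, and the root gene PYK10 at 1367 against 1553. KNAT1, a meristem gene, was at 5.98 RPKM in m90 against 4.62 in wild type, whereas STM, of the same list, was at 1.62 against 3.04. SUC2, of the phloem, was at 21.5 RPKM in m90 against 31.6 in wild type, whereas the guard cell gene KAT1 was at 14.2 against 9.48. The floral genes PI and SEP3 were at 2.39 and 1.21 RPKM in m90 against 1.99 and 1.6 in wild type, and AP1 was at 0 in both. The part of seed tissue in the lower late embryogenesis abundant genes was not tested.

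Abscisic acid genes, which act with drying and seed maturation, differed by list. Of 22 output genes of abscisic acid, dehydration and cold tested, 2 were higher and 1 lower (median -0.05). RD29B was at 5.79 RPKM in m90, 29.0 in atprmt5, 1.05 in s215 and 37.3 in wild type, a ratio of 0.155 (0.134 to 0.179). The cold genes KIN1 and LTI30 were higher, at 45.2 and 289 RPKM in m90 against 10.6 and 137 in wild type. KIN1 adjoins AT5G15950, which was higher too, and has a close copy in the genome. Of 8 clade A phosphatase genes, brakes on abscisic acid signalling, 0 were called, yet all 8 had a log2 ratio below 0 (median -0.46), with PP2CA at 94.0 RPKM in m90 against 120 in wild type.

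Some genes of darkness, low sugar and carbon supply were lower in m90, 3 of 5 BT genes and 9 of 24 dark and sugar starvation genes tested, against 2.74% of all loci. BT2, which encodes a BTB and TAZ domain protein, was at 22.9 RPKM in m90, 19.1 in atprmt5, 0.440 in s215 and 182 in wild type, a ratio of 0.126 (0.115 to 0.137). The m90 and atprmt5 libraries lay close together, s215 below them and wild type above. BT1 and BT4 were lower too (median of the BT genes -1.70), and BT1 was at 47.0 RPKM in m90, 13.2 in atprmt5, 0.819 in s215 and 154 in wild type. BT5 went the other way within 2-fold, at 72.3 RPKM in m90 against 41.4 in wild type. Among the dark and sugar starvation genes the 9 lower members made up 37.5%, 0 were higher and the median was -0.75. BXL1, a beta-xylosidase gene, was at 40.7 RPKM in m90, 58.9 in atprmt5, 28.6 in s215 and 201 in wild type (ratio 0.203, 0.193 to 0.213). DIN10 and SEN1, named for induction by darkness and senescence, were at 16.3 and 11.4 RPKM in m90 against 80.9 and 54.4 in wild type. The F-box gene KMD4 was at 62.1 RPKM in m90, 160 in atprmt5, 267 in s215 and 235 in wild type. DIN2, TPS8, TPS11, ASN1 and BZIP1 were the other lower members, with log2 ratios from -1.27 to -1.05.

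Of 10 senescence genes tested, SAG29 and ORE1 were lower, at 13.9 and 2.01 RPKM in m90 against 62.9 and 6.75 in wild type. Of 7 ATG8 autophagy genes, ATG8C was lower, at 7.18 RPKM in m90 against 17.6 in wild type. Of 10 nitrate genes tested, 0 were called, and the glutamine synthetase gene GLN2 was at 1250.1 RPKM in m90 against 1090.1 in wild type. Of 43 photosynthesis genes, 0 were called and the median was 0.05. PSBR, the most abundant of them, was at 15988 RPKM in m90 against 21766 in wild type, and CAB1 at 9322 against 7979. With 5.39% of all loci called, the ATG8, nitrate and photosynthesis counts are not set apart from that share.

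SAUR genes, small auxin-responsive genes that promote cell expansion, formed the largest family of lower loci described here. Of 46 tested, 20 were lower (43.5%) and 1 higher, and the median was -0.96. Over all 70 SAUR genes in the table the median was -0.62 and the summed level was 204 RPKM in m90, 297 in atprmt5, 150 in s215 and 384 in wild type. Of the 46, 14 passed on wild type alone. SAUR29 was at 2.47 RPKM in m90, 11.3 in atprmt5, 2.37 in s215 and 24.9 in wild type (ratio 0.0982, 0.0684 to 0.137). AT2G37030 was at 2.48 RPKM in m90, 7.92 in atprmt5, 0 in s215 and 15.3 in wild type. AT4G34760 was at 6.83 RPKM in m90, 25.4 in atprmt5, 4.38 in s215 and 27.4 in wild type, a gene where atprmt5 lay near wild type. On chromosome 1, between 10302585 and 10309896, the lower SAUR genes AT1G29430, SAUR63, AT1G29450 and AT1G29460 follow one another, and AT1G29500 and SAUR68 lie close by. On chromosome 5 the lower genes SAUR19, SAUR22, SAUR24 and AT5G18030 also belong to 1 cluster. Such clusters hold close copies, and single members are uncertain. AT3G09870 was the higher member, at 22.8 RPKM in m90 against 10.8 in wild type.

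The counts of several other hormone and growth families lay near the 2.74% of all loci that were lower. Of 26 Aux/IAA and GH3 genes tested, which report or limit auxin, IAA6 was lower, at 0.881 RPKM in m90, 1.84 in atprmt5, 1.80 in s215 and 6.07 in wild type. IAA6 passed the minimum on wild type alone. The type-A response regulators, early targets of cytokinin, were an exception, and of 7 tested ARR6 and ARR7 were lower and 0 higher (median -0.84). ARR6 was at 2.08 RPKM in m90 against 8.87 in wild type and ARR7 at 4.58 against 12.5. Of 25 XTH genes, which remodel cell walls, XTH6 was lower, at 14 RPKM in m90 against 34.0 in wild type. Of 22 aquaporin genes outside the seed pair, PIP1;5 was lower, at 40.6 RPKM in m90 against 99.1 in wild type.

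Flowering and clock genes were mostly within 2-fold, as were 94.6% of all loci. Of 13 genes of the FLC clade and other floral repressors, 0 were called, and SVP was at 205 RPKM in m90 against 174 in wild type. FLC itself was at 0.467 RPKM in m90, 3.28 in atprmt5, 22.6 in s215 and 1.66 in wild type. The m90 to wild-type ratio of FLC was 0.283 (0.118 to 0.609), on 9 reads in m90 and 31 in wild type, under 2-fold on the scale used. Of 8 autonomous pathway genes, which keep FLC low, 0 were called, and FVE was at 28.4 RPKM in m90 against 16.1 in wild type. Of 8 floral promoter and SPL genes tested, SPL3, a promoter of the change to flowering, was lower, at 14.6 RPKM in m90, 18.8 in atprmt5, 77.8 in s215 and 60.1 in wild type (ratio 0.243, 0.211 to 0.279). For SPL3 the m90 and atprmt5 libraries were low and the other two high. Of 13 morning clock genes, LHY and RVE8 were higher, LHY at 24.9 RPKM in m90, 27.5 in atprmt5, 148 in s215 and 6.07 in wild type and RVE8 at 11.5 in m90 against 3.68 in wild type. CCA1, the partner of LHY, was at 148 RPKM in m90 against 145 in wild type. Of 14 PRR and evening genes, PRR5 was lower, at 4.93 RPKM in m90 against 13.0 in wild type, and 2 of the 14 had a log2 ratio above 0 (median -0.44). The hour of harvest is not given in the labels used here.

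Loci with few exons were called more often. Of 2895 loci whose longest annotated transcript has 1 exon, 6.77% were higher and 6.32% lower in m90. The shares were 2.62% and 3.15% of 7901 loci with 2 to 5 exons, 1.51% and 1.06% of 4705 with 6 to 10, and 0.543% and 0.781% of 2944 with 11 or more. Within the level class of 20 to 100 RPKM, 8.77% of 1-exon loci were higher and 6.16% lower, against 0.844% and 1.08% of loci with 6 or more exons. Loci with few exons are also shorter, with a median exonic length of 1399 bases for 1 exon and 2578 for 11 or more. The part of length, level and gene class in this difference was not tested.

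**Figure D4:**
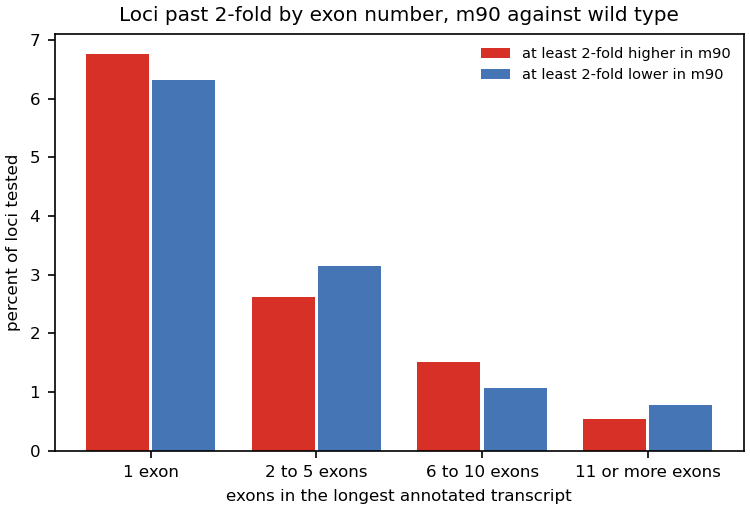
Percent of tested loci at least 2-fold higher (red) or lower (blue) in m90 than in wild type, by number of exons in the longest annotated transcript. Both shares are above 6% for 1-exon loci and below 1% for loci with 11 or more exons.

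The values just inside and outside the thresholds show how close the calls run. The locus AT2G28330, at 1.345 RPKM in m90 against 0.656 in wild type, just passed the minimum with a mean of 1.0004, and MMP, at 0.8333 against 1.1659, just missed it with a mean of 0.9996. AT2G32020, at 3.89 RPKM in m90 against 1.44 in wild type, was just called higher, and ZAT11, at 5.24 against 2.12, was just not. ELI3-1, at 35.6 RPKM in m90 against 72.2 in wild type, was just called lower, and AT5G47440, at 0.781 against 2.56, was just not.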

How the data were processed

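Whole seedlings gave total RNA (Trizol), and libraries that keep the strand were built with a SMART method, per the labels' protocols. The authors deposited 1 table of RPKM values for 24288 loci in 4 libraries, each column matched to its sample by name. Per the submitters' processing notes, TopHat2 2.0.11 and the build TAIR10 were used. The counting program, its strand setting and its handling of multiply matching reads are not stated there, so overlapping and antisense genes are uncertain.

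RPKM are not counts, and with 1 library per line no model was fitted and no p-value is given. Log2 ratios used a pseudocount of 1 RPKM, a minimum mean of 1 RPKM and a 2-fold threshold. The total behind the scaling was recovered from the value of 1 read, 17802377 in m90 and 17350612 in wild type. For all 24288 loci a whole length up to 20000 gave whole bases of 100-base reads within 1e-05. Reads derived this way are approximate, since the length is chosen among multiples by the annotation. Their Clopper-Pearson intervals (95%) cover counting error only, because the libraries carry no stated molecular identifiers and reads can be copies of 1 molecule. The calculation was tested on simulated data (Python 3.11.15, scipy 1.17.1). Gene names, exons and promoter sequence came from the RefSeq annotation, whose coordinates are those of the same chromosomes.

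Named loci were the 15 highest and 15 lowest ratios, PRMT5, and the members of gene lists past 2-fold, or the most abundant where none passed. The members and lists were chosen with earlier results of these data known. A planned list of chromatin and DNA repair genes was not made. Alternatives were another pseudocount, filter, scaling, trend correction or threshold.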

Additional observations from a re-analysis of the deposited data

How the results depend on the processing

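The counts of loci past 2-fold, 491 higher and 507 lower in m90, moved by over 1.5 times under some alternatives. With a pseudocount of 0.1 RPKM they were 772 and 833, with 5 RPKM 202 and 176. A 3-fold threshold gave 98 and 128 and a 1.5-fold threshold 1652 and 1818, and a minimum mean of 5 RPKM left 319 lower loci; these follow from the construction of each alternative. With no filter, a filter over all 4 libraries, centring on the median, trimmed mean scaling, removal of trends in level or in GC content and length, or a counting interval that excludes 1, the counts lay between 484 and 557 higher and between 443 and 547 lower. Of 458 list medians recomputed, 380 moved by less than 0.1. The medians of 10 of 51 lists changed sign under at least 1 alternative, and 9 of these were under 0.2 in size, such as NTC and catalytic factors (-0.053 to 0.052), photosynthesis (-0.087 to 0.097), TIR-domain genes (-0.040 to 0.092) and CRK genes (-0.31 to 0.034). The other was the PR list, at -0.076 with a minimum mean of 5 RPKM, against 0.28, with fewer genes tested. In all, 33 medians changed sign or moved by over 1.5 times, among them ERF and DREB genes (0.15 to 0.61), heat shock factors (0.11 to 0.49), chaperones (0.16 to 0.46), JAZ genes (0.24 to 0.73), PROPEP and receptor genes (0.0079 to 0.61), cell cycle (0.35 to 0.71), replication (0.23 to 0.64) and SAUR genes (-1.22 to -0.45). Of 260 values of named loci, 231 moved little and 0 reversed. No paired analysis was possible because each line has 1 library. Replicates were not available to leave out. Depth limits loci near 1 RPKM most: seed genes in m90 rest on 5 reads or fewer for CRU3, CRA1, OLEO1, OLEO2 and TIP3;1.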

Other observations

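Beside the protein-coding genes, 104 long non-coding RNA loci were tested, of which 2 were higher and 8 lower in m90 (1.92% and 7.69%), with a median log2 ratio of -0.31. Of 68 pseudogenes, 0 were higher and 1 was lower. Of 19 microRNA loci, 3 were higher and 1 lower, and of 17 small nucleolar RNA loci, 4 were higher and 2 lower. The microRNA and small nucleolar RNA loci are short, with a median exonic length of 187 and 82 bases.

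Called loci of chromosomes 1 to 5 made up between 2.30% and 3.11% of loci tested for higher and between 2.30% and 3.24% for lower. Some lay side by side without belonging to a family list above. On chromosome 5, between 17023502 and 17058245, CYP705A12, CYP71A16 and MRN1 were all lower in m90; they belong to the marneral gene cluster, which makes a root triterpene. LTP3 and LTP4, adjacent lipid transfer protein genes, were both lower.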
